A study of Xenopus laevis with 6 samples.

Results

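The genes described here are the tubulins, kinesins, dyneins and intraflagellar transport genes measured in Xenopus laevis animal caps. They were chosen by name: every probe set whose single annotated gene symbol matches tuba, tubb, tubg, kif or ift with a digit, or starts with dync, dynl, dnah or dnai. One probe set stands for each gene and copy, the one with the highest mean over the 6 arrays. This gave 46 genes and copies out of the 7531 that have a single symbol in the series, and these 46 stand for 38 genes, since 8 are measured as both an L and an S copy. This frog carries a duplicated genome, and the endings .L and .S tell the copy on the longer chromosome of a pair from the one on the shorter. The choice itself used no measured difference between groups, but earlier results of these data were known when it was made.

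Animal caps are explants of the upper, ectodermal part of the embryo, and they become epidermis when nothing is added. RNA was hybridised to Affymetrix arrays at gastrula stage 10.5 from 3 groups of 2 samples, namely uninjected caps, caps expressing injected Mixer and caps expressing injected Sox17beta. Mixer belongs to the homeodomain proteins and Sox17beta to the HMG-box proteins. Each is a transcription factor that promotes endoderm, and the study asks which genes each changes in tissue that would otherwise become ectoderm. The labels give no amount injected and name no separate clutches. A p-value here therefore covers only the variation among these samples, possibly of technical origin. The epidermal marker genes averaged between 8.71 and 9.64 (log2) on the uninjected arrays, between 7.33 and 8.50 on the Mixer arrays and between 6.48 and 7.11 on the Sox17beta arrays.

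Microtubules are hollow polymers of paired alpha and beta tubulin, and gamma tubulin, held in a ring complex, starts their growth. Kinesins and cytoplasmic dynein are motors that walk along microtubules towards opposite ends, and many kinesins act in the mitotic spindle. Cilia are built on a core of microtubules by intraflagellar transport, in which kinesin-2 carries cargo outwards and a dynein carries it back, and axonemal dyneins make motile cilia beat. The frog epidermis is known for its multiciliated cells, whose cilia are assembled long after the gastrula stage.

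The values are log2 expression values, and a difference of 1 on this scale is a doubling. To judge whether a gene was measured at all, its value was set against the highest of the 44 control probe sets for absent transcripts on the same array, which lay between 5.90 and 6.62. Under or below the absent controls means under this highest control. The median of these controls lay between 3.725 and 4.06, so a value under the highest can still lie above most of them. The number of genes and copies above the highest control was counted. Of the 46 genes and copies, 26 were above it on all 6 arrays and 11 on none. The number above it was 27 on the array of Sox17beta replicate 1, which had the highest limit, and 30 to 35 on the other arrays. All 12 mitotic kinesins were above it on every array. Among the genes of cilia, 1 of 6 intraflagellar transport genes and 0 of 3 axonemal dyneins were. On single arrays, 1 of the 6 intraflagellar transport genes was above it on Sox17beta replicate 1 and 3 to 5 on the others. Of all probe sets, 48.5% were above it on Sox17beta replicate 1 and 57.8% to 60.7% on the others.

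**Figure D1:**
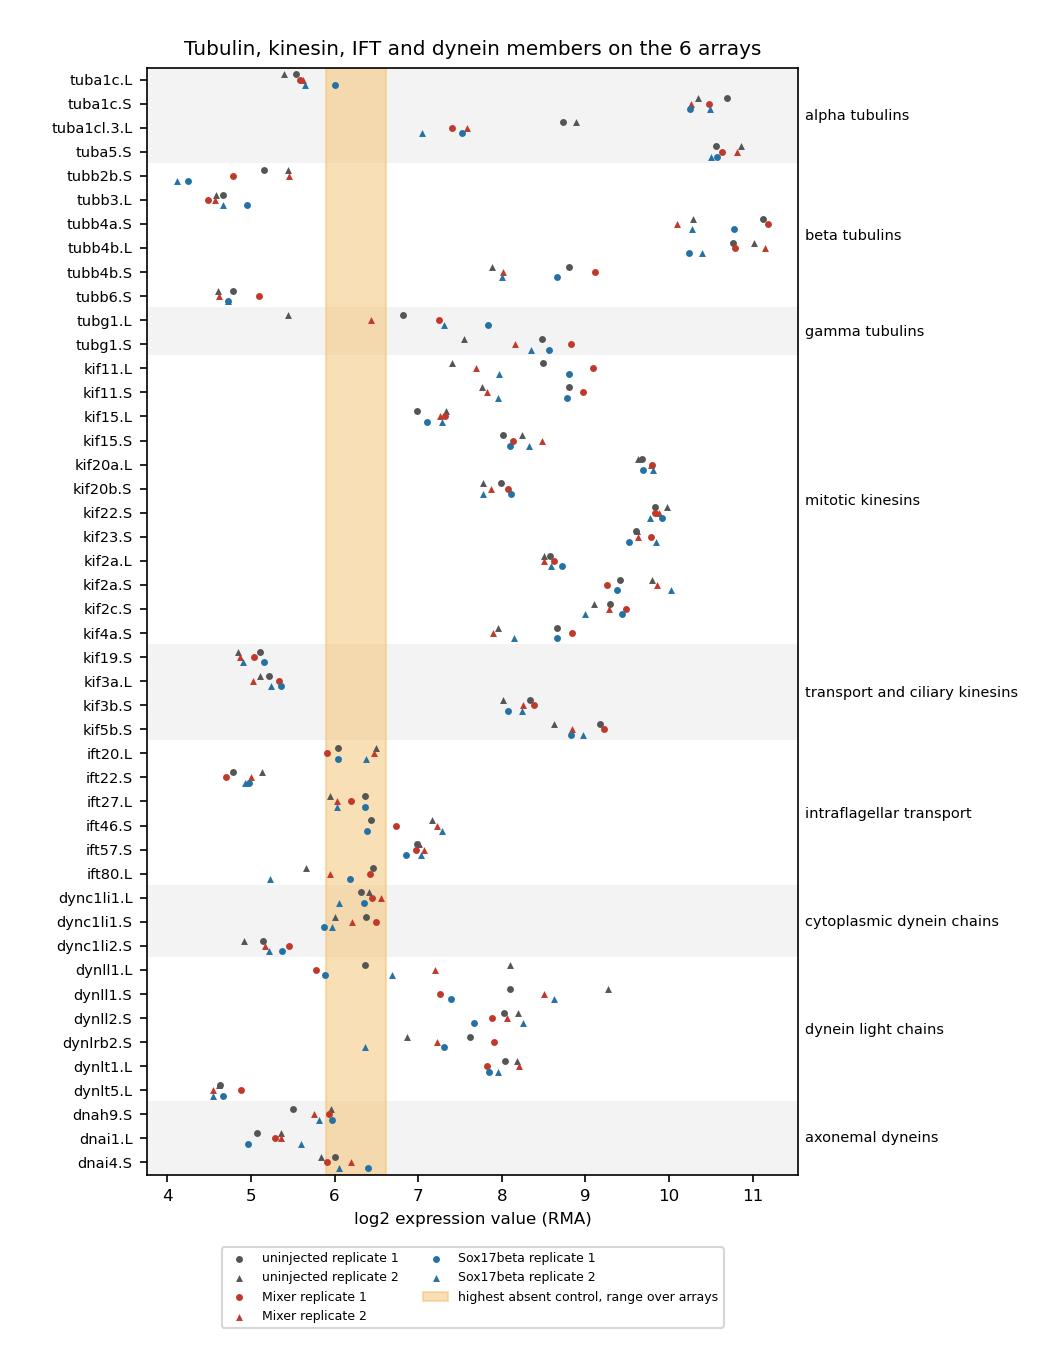
Log2 expression values (horizontal axis) of the 46 genes and copies, 1 per row and grouped by role. Points are single arrays (circles replicate 1, triangles replicate 2) of uninjected, Mixer and Sox17beta caps, and the orange band spans 5.90 to 6.62, the highest control for absent transcripts on each array. The mitotic kinesins lie above the band on every array, while the axonemal dyneins lie within or below it.

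Few of these genes differed between the groups. Without a block for the replicate number, 0 of 46 passed an adjusted p of 0.05 in any of the 3 comparisons (limma, Benjamini-Hochberg over 15491 probe sets). Of all probe sets, 0.0387% passed for Mixer against uninjected, 0.0194% for Sox17beta against uninjected and 0.0581% for Mixer against Sox17beta. At an unadjusted p under 0.05 the numbers of members were 1, 4 and 2, where 2.87%, 6.26% and 3.97% of all probe sets reached it. Replicates of the same number varied together across groups, and with that number as a block 2 members passed in Mixer caps, 5 in Sox17beta caps and 2 between the injected groups. The shares of all probe sets that passed with the block were 1.31%, 5.45% and 1.56%. The members' 4.35%, 10.9% and 4.35% rest on so few genes that 1 gene more or less moves them by 2.17 percentage points. The 2 groups did not overlap in 7, 12 and 9 members, against 22.1%, 30.4% and 24.5% of all probe sets. Every change named below as a rise or fall passed only with the block.

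In Mixer caps tuba1cl.3.L and dynll1.S fell, where 0.775% of all probe sets fell. In Sox17beta caps tuba1cl.3.L, tubb4b.L and dynll1.S fell, tubg1.L rose, and tubb2b.S passed as lower with values under the absent controls on every array, where 3.56% of all probe sets fell and 1.88% rose. Between the injected groups tubb4b.L and dynlrb2.S were higher in Mixer caps, as were 1% of all probe sets. Over all members, 38 of 46 lay within 0.25 log2 units of the uninjected level in Mixer caps and 32 of 46 in Sox17beta caps, or 82.6% and 69.6%, against 81.4% and 74.4% of all probe sets. Among the members not called, 6 of 44 in Mixer caps and 9 of 41 in Sox17beta caps lay further away. The furthest in Sox17beta caps was dynll1.L (-0.94), whose value on Sox17beta replicate 1 lay under the absent control. Where a single array is left out below, the blocked fit has 1 residual degree of freedom and the group that lost it has 1 array, which is assumed to vary like the other groups. A call that passes or ends in such a fit is no measure of stability. Nor is the range of a difference over the omissions, which comes from the same arrays as its replicate differences. The members' median difference was 0.09 in Mixer caps and 0.02 in Sox17beta caps, where all probe sets had 0.03 and 0.04. Both injected groups were compared with the same uninjected arrays, so these values are not independent of each other.

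**Figure D2:**
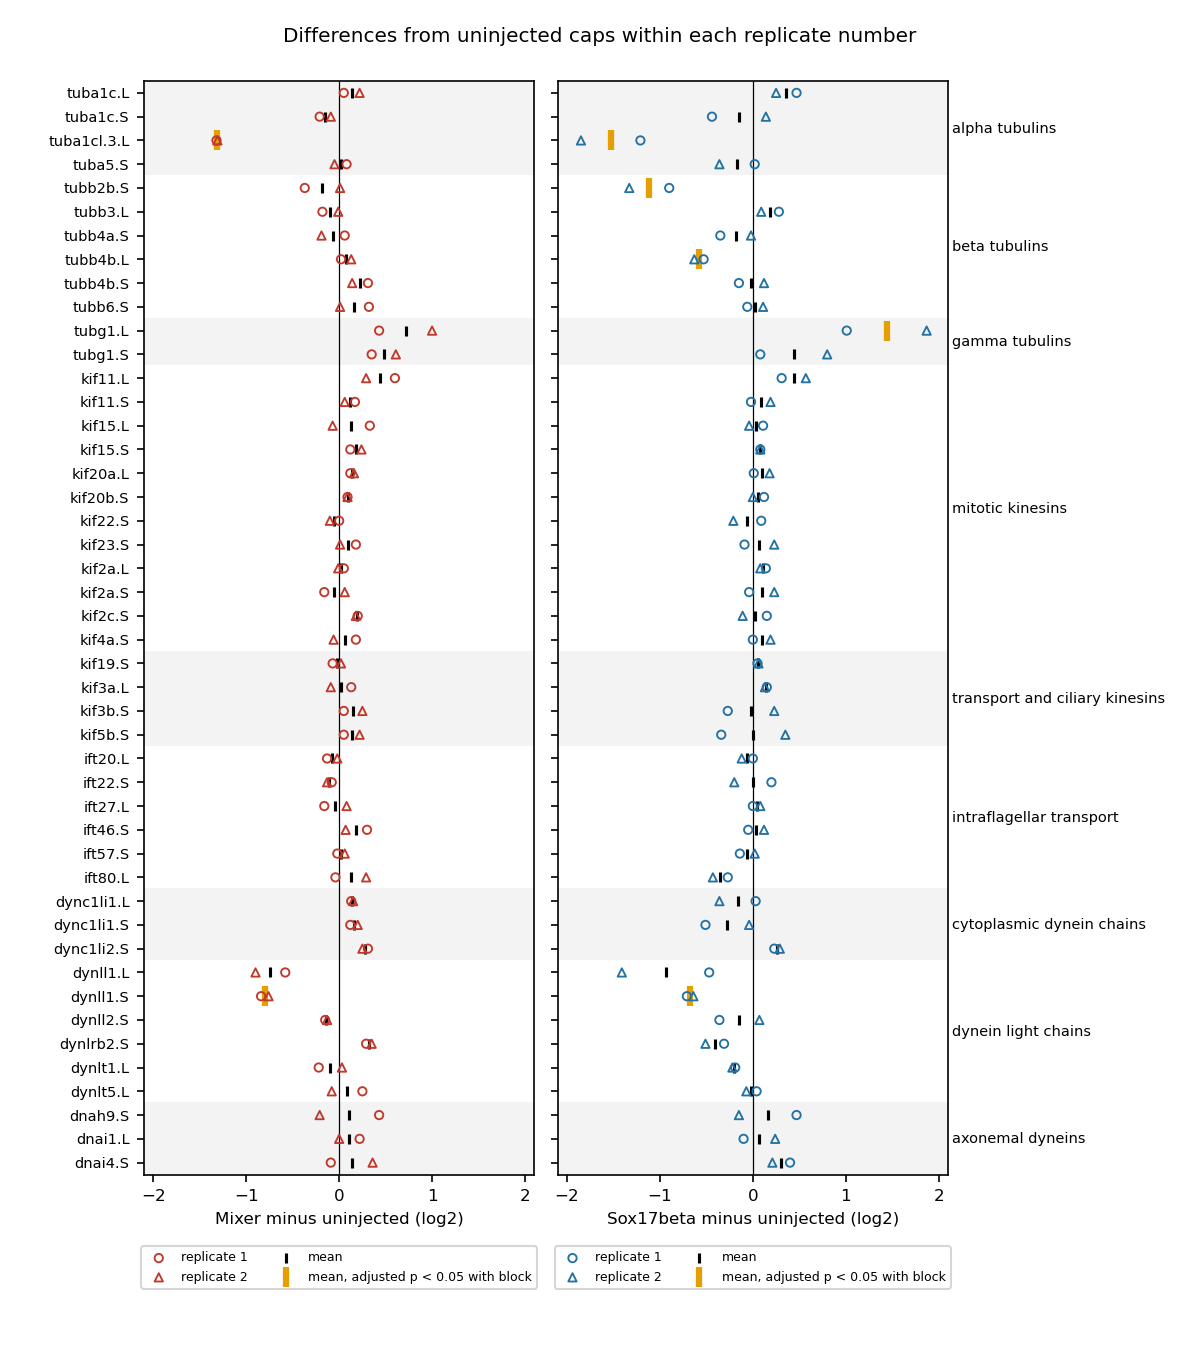
Differences from uninjected caps on the log2 scale for Mixer (left) and Sox17beta caps (right), each computed within a replicate number (circles replicate 1, triangles replicate 2), with the mean as a bar. Thick orange bars mark the 2 genes in Mixer caps and the 5 in Sox17beta caps that passed an adjusted p of 0.05 with the replicate number as a block. Most other genes lie within 0.25 of no difference.

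Among the 4 alpha tubulins, tuba1cl.3.L differed most. It is by its name a tuba1c-like gene, and next to it in the reference annotation lies a further alpha tubulin, tuba1al.L. It read 8.73 and 8.89 in uninjected caps, 7.41 and 7.58 in Mixer caps, and 7.52 and 7.04 in Sox17beta caps. All 4 injected arrays were lower than both uninjected arrays. The fall in Mixer caps was -1.32 and -1.31 in the replicates, a mean of -1.31 ± 0.18 (SE of the blocked fit) or 2.49-fold, with an adjusted p of 0.0273 with the block and 0.635 without. In Sox17beta caps it was -1.21 and -1.85, a mean of -1.53 ± 0.18 or 2.89-fold, with adjusted p = 0.00634 and 0.183. The values in the injected groups overlapped, and their difference of 0.21 did not pass (adjusted p = 0.632 with the block). Over the 6 omissions of 1 array the difference in Sox17beta caps ranged from -1.85 to -1.21 and passed only without Sox17beta replicate 1, where 1 Sox17beta array is left (adjusted p = 0.0184). The difference in Mixer caps ranged from -1.48 to -1.15 and passed in none of them (adjusted p from 0.0735 to 0.712).

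All 3 probe sets of tuba1cl.3.L were lower in both injected groups, at very different signal levels. The values above come from a probe set ending _x_at, a type whose probes can also match other transcripts. A second _x_at set read 8.41 and 8.60, then 7.15 and 7.38, then 7.34 and 6.54 in the same order of groups. All 4 injected arrays were below both uninjected arrays. The set specific to the gene read 3.23 and 3.32 in uninjected caps, 2.94 and 3.02 in Mixer caps and 2.95 and 2.82 in Sox17beta caps, below the absent controls on every array. Its injected arrays were below the uninjected ones too, with differences of -0.29 and -0.39 that did not pass (adjusted p with the block 0.364 and 0.127). Which alpha tubulin transcripts the _x_at sets read was not tested.

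The other alpha tubulins changed little in the probe sets used. The brightest, tuba5.S, read 10.56 and 10.86 in uninjected caps, 10.64 and 10.81 in Mixer caps and 10.58 and 10.50 in Sox17beta caps. The groups overlapped, apart from Mixer against Sox17beta, where the difference of 0.19 did not pass (adjusted p = 0.564 with the block). This set ends in _a_at, a type not counted here as gene-specific. The 2 further sets of tuba5.S were lower in both injected groups. Its gene-specific set read 8.37 and 9.26 in uninjected, 7.09 and 8.31 in Mixer and 7.42 and 7.86 in Sox17beta caps. When gene-specific sets replaced the brightest ones for all members together, the blocked fit called a fall of tuba5.S in both groups. It was -1.11 in Mixer caps (adjusted p = 0.0450) and -1.18 in Sox17beta caps (adjusted p = 0.0150). Under that setting tuba1cl.3.L, then read by its own gene-specific set below the absent controls, no longer passed. For tuba1c.S, a widely expressed alpha tubulin, 3 probe sets gave differences between -0.16 and -0.05, and the S copy read 10.69 and 10.35, 10.48 and 10.26, and 10.25 and 10.49. The L copy, tuba1c.L, was below the absent controls on all 6 arrays, and its difference of 0.36 in Sox17beta caps did not pass (adjusted p = 0.200 with the block).

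**Figure D3:**
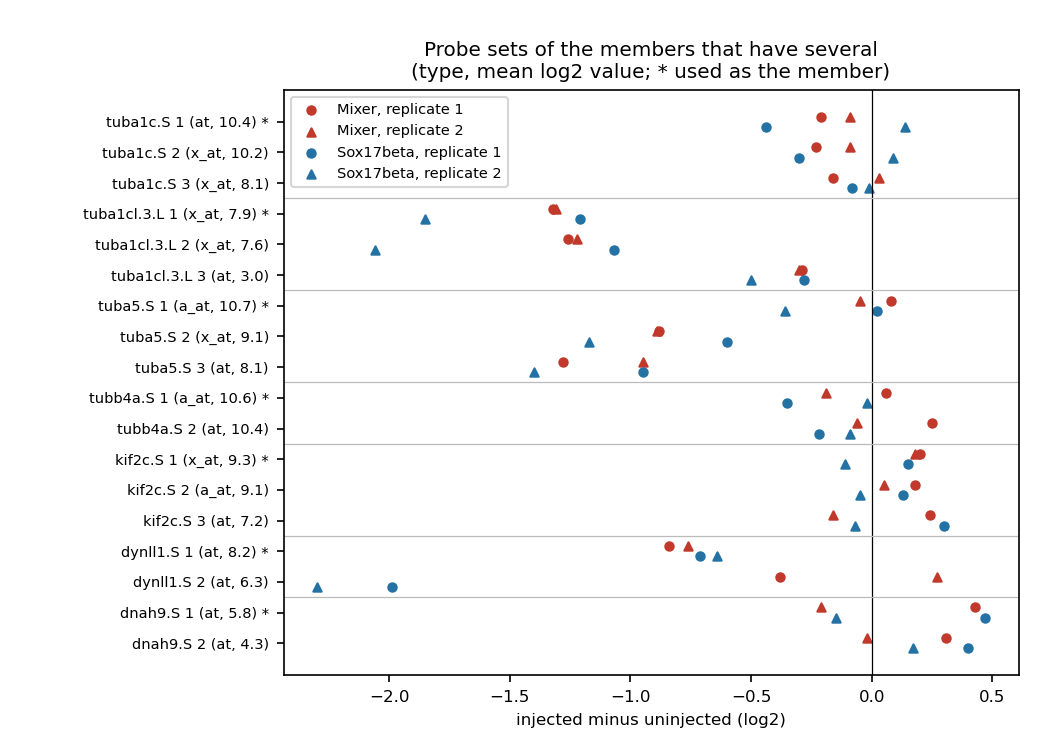
Differences between injected and uninjected caps (log2) for every probe set of the 7 genes and copies that have several, with Mixer in red, Sox17beta in blue, circles for replicate 1 and triangles for replicate 2. Row labels give the probe set type and its mean log2 value, and an asterisk marks the set used. The sets of tuba1c.S, tubb4a.S and kif2c.S lie close together, while those of tuba1cl.3.L, tuba5.S and dynll1.S do not.

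The beta tubulins comprised 6 genes and copies, of which 3 were above the absent controls on all arrays. The brightest, tubb4b.L, encodes a widely used beta tubulin that in mammals is also a main beta tubulin of cilia. It read 10.77 and 11.02 in uninjected caps, 10.79 and 11.15 in Mixer caps and 10.24 and 10.39 in Sox17beta caps. The Sox17beta arrays were below all other arrays. The fall against uninjected caps was -0.53 and -0.63 in the replicates, a mean of -0.58 ± 0.11 (SE of the blocked fit) or 1.49-fold, with adjusted p = 0.0317 with the block and 0.639 without. Against Mixer caps the difference was 0.66 ± 0.11 or 1.57-fold (adjusted p = 0.0460 with the block, 0.914 without). Over the 6 omissions of 1 array the differences ranged from -0.66 to -0.50 and from 0.58 to 0.73. Both calls ended with an intensity trend in the fit, and with quantile normalization. The call against Mixer caps also ended with the filter on absent controls. In Mixer caps tubb4b.L differed by 0.07 (adjusted p = 0.881 with the block).

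The S copy of the same gene gave another pattern. tubb4b.S read 8.81 and 7.88 in uninjected caps, 9.12 and 8.02 in Mixer caps and 8.66 and 8.0 in Sox17beta caps. Its replicates differed by more than its groups, and its Sox17beta difference was -0.01 (adjusted p = 0.966 with the block). The response of the L copy minus that of the S copy was -0.56 in Sox17beta caps, and the test of this difference did not pass (adjusted p over 1017 gene pairs 0.184 with the block).

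tubb2b.S encodes a beta tubulin known as a marker of differentiating neurons. It read 5.15 and 5.44 in uninjected caps, 4.78 and 5.45 in Mixer caps and 4.25 and 4.11 in Sox17beta caps. All 6 values lay below the absent controls of their arrays, so neither a level nor a fold can be given. Both Sox17beta arrays were lower than the other 4, and the probe set passed as lower in Sox17beta caps (adjusted p = 0.0195 with the block, 0.368 without). Over the omissions it passed only without Sox17beta replicate 1, where 1 Sox17beta array is left (adjusted p = 0.0477, otherwise up to 0.407). Between Mixer and Sox17beta caps it did not pass (adjusted p = 0.0707 with the block). The neural plate markers, a list that includes tubb2b.S, did not move one way in Sox17beta caps: 6 of 12 gene copies were lower and 5 higher, with a median of -0.01. Of the 12 copies 5 were above the absent controls on all arrays and 5 on none. These counts and the median thus rest in part on values under the absent controls. With the block sox3.S (-1.11), elavl3.L (-0.95) and sox11.S (-0.62) fell, which with tubb2b.S makes 4 of 12 lower and 0 higher, where 3.56% of all probe sets fell and 1.88% rose. The highest differences were those of zic1.S (0.49) and neurog2.S (0.36), which did not pass. The list's mean log2 value lay between 6.71 and 7.04 in uninjected, 6.62 and 6.97 in Mixer and 6.49 and 6.79 in Sox17beta caps, and the part of cell composition in these values was not tested. In such bulk samples fewer cells of a type and less RNA per cell cannot be told apart.

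The remaining beta tubulins did not pass. tubb4a.S, the counterpart of a mammalian brain beta tubulin, read 11.13 and 10.29 in uninjected, 11.19 and 10.10 in Mixer and 10.78 and 10.27 in Sox17beta caps, and its 3 groups overlapped. tubb3.L, the neuronal beta tubulin, and tubb6.S were below the absent controls on all arrays and differed by 0.19 or less from uninjected caps in either direction.

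Gamma tubulin gave the only rise among the 46. tubg1.L, which encodes the nucleating tubulin of centrosomes and spindle poles, read 6.82 and 5.44 in uninjected caps, 7.25 and 6.44 in Mixer caps and 7.83 and 7.31 in Sox17beta caps. It was above the absent controls on 5 of 6 arrays, all but uninjected replicate 2. Within each replicate number the order was uninjected, Mixer, Sox17beta. The rise in Sox17beta caps was 1.01 in replicate 1 and 1.87 in replicate 2, a measured mean of 1.44 ± 0.20 (SE of the blocked fit), with adjusted p = 0.00970 with the block and 0.769 without. The 1.87, and with it part of the mean, is set against an uninjected value under its absent control, so its size is uncertain and no fold is given. Over the omissions of 1 array the difference ranged from 1.08 to 1.80 and passed in none of them (adjusted p from 0.0549 to 0.301). In Mixer caps tubg1.L was higher by 0.71 and did not pass (adjusted p = 0.175 with the block), nor did the difference of -0.72 between Mixer and Sox17beta caps (0.158).

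tubg1.S read 8.48 and 7.55 in uninjected caps, 8.83 and 8.16 in Mixer caps and 8.56 and 8.35 in Sox17beta caps. Replicate 1 was high in every group, and the differences of 0.48 in Mixer and 0.44 in Sox17beta caps did not pass (adjusted p with the block 0.328 and 0.247). The 2 copies were set against each other by testing the L minus S value of each array. In Sox17beta caps the response of tubg1.L exceeded that of tubg1.S by 1.0 ± 0.13 (SE, adjusted p over 1017 pairs 0.0186 with the block and 0.326 without). Over the omissions of 1 array it passed only without Sox17beta replicate 1, where 1 Sox17beta array is left (adjusted p = 0.0487, otherwise up to 0.290). It too rests in part on the uninjected value of tubg1.L under its absent control. tubg1 was the only called pair among the 8 member pairs in any comparison, where 37 of all 1017 pairs were called for Sox17beta with the block. In the comparison of Mixer with Sox17beta caps the L minus S response was -0.77 (adjusted p = 0.0772 with the block).

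**Figure D4:**
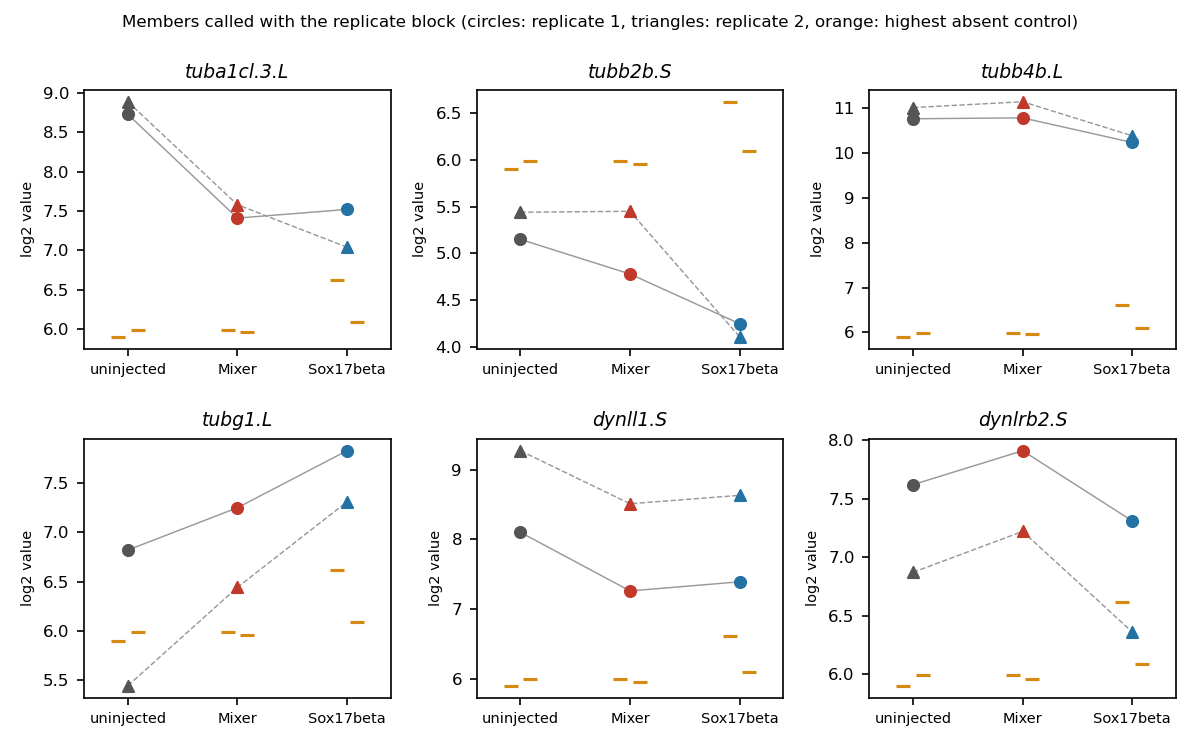
Log2 values in every array of the 6 genes that passed an adjusted p of 0.05 with the block in any comparison, with circles and solid lines for replicate 1 and triangles and dashed lines for replicate 2. Short orange marks show the highest absent control of each array. tubb2b.S lies under them throughout, and in dynll1.S and dynlrb2.S the replicates are far apart while both lines run nearly in parallel.

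The 12 mitotic kinesins did not differ detectably between groups. None passed in any comparison with or without the block, and their differences lay between -0.05 and 0.45 in Mixer caps and between -0.06 and 0.44 in Sox17beta caps. In Mixer caps 10 of 12 and in Sox17beta caps 11 of 12 were above the uninjected mean, with medians of 0.11 and 0.08, against 0.03 and 0.04 for all probe sets. The brightest, kif22.S, is a chromokinesin that acts on chromosome arms in the spindle. It read 9.83 and 9.98 in uninjected, 9.83 and 9.88 in Mixer and 9.92 and 9.77 in Sox17beta caps. Its values overlapped in all groups.

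The largest difference in this class was that of kif11.L. kif11 encodes Eg5, the motor that pushes the spindle poles apart. kif11.L read 8.49 and 7.40 in uninjected, 9.09 and 7.69 in Mixer and 8.80 and 7.97 in Sox17beta caps. Both injected groups were higher within each replicate number, by 0.45 and 0.44, but neither passed (adjusted p with the block 0.288 and 0.186). kif11.S read 8.80 and 7.76, 8.97 and 7.82, and 8.78 and 7.95, with differences of 0.12 and 0.09. Both copies and kif4a.S, a chromokinesin, were lower in replicate 2 than in replicate 1 of every group, by about 1 log2 unit for kif11. kif2c.S, a kinesin that takes microtubule ends apart, showed the largest difference between Mixer and Sox17beta caps in this class, 0.17 (adjusted p with the block 0.567). The cytokinesis kinesins kif20a.L and kif23.S differed by 0.14 or less in either injected group.

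The kinesins of transport and cilia comprised 4 genes. kif5b.S, the conventional kinesin that carries organelles, read 9.17 and 8.62 in uninjected, 9.22 and 8.84 in Mixer and 8.83 and 8.97 in Sox17beta caps. kif3b.S, a motor subunit of kinesin-2, read 8.34 and 8.01, 8.39 and 8.26, and 8.07 and 8.24. Neither passed in any comparison, and their largest difference was 0.17, that of kif3b.S between Mixer and Sox17beta caps. The partner subunit kif3a.L, at 5.02 to 5.36, and kif19.S, which in mice limits the length of motile cilia, at 4.85 to 5.16, were below the absent controls on all arrays.

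The 6 intraflagellar transport genes, ift20.L, ift22.S, ift27.L, ift46.S, ift57.S and ift80.L, encode subunits of the IFT-B complex, which moves with kinesin-2 towards the tip of a cilium. None passed in any comparison, and their medians were -0.01 in Mixer and -0.03 in Sox17beta caps. The only one above the absent controls on all arrays, ift57.S, read 6.99 and 7.01 in uninjected, 6.97 and 7.07 in Mixer and 6.85 and 7.03 in Sox17beta caps. Its groups overlapped. ift46.S read 6.44 and 7.16, 6.74 and 7.23, and 6.39 and 7.28, higher in replicate 2 of every group. The largest differences were those of ift80.L, which read 6.46 and 5.66, 6.42 and 5.95, and 6.19 and 5.23. With the block, the difference of Mixer from Sox17beta caps was 0.48 (adjusted p = 0.191) and that of Sox17beta from uninjected caps was -0.35 (0.258). ift80.L was above the absent controls on 2 arrays only, replicate 1 of uninjected and of Mixer caps. Both differences thus involve values under the absent controls, and their sizes are uncertain.

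Cytoplasmic dynein was represented by 3 light intermediate chains, which link the motor to its cargo. dync1li1.L read 6.32 and 6.41 in uninjected, 6.45 and 6.56 in Mixer and 6.35 and 6.05 in Sox17beta caps. dync1li1.S read 6.38 and 6.01, 6.50 and 6.21, and 5.87 and 5.97. Both copies were highest in Mixer caps, and neither passed between Mixer and Sox17beta caps (adjusted p with the block 0.380 and 0.237). Both were under the absent controls on both Sox17beta arrays, so the measured difference of means has only a bound. It was at least 1.11-fold for the L copy and none for the S copy, without regard to the error. In replicate 1 the Mixer value of the L copy, 6.45, lay under the Sox17beta limit of 6.62. dync1li2.S was below the absent controls on all arrays and was higher by 0.28 in Mixer and 0.26 in Sox17beta caps without passing (0.354 and 0.265).

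The dynein light chains held the other called genes. dynll1 encodes LC8, a small protein that pairs partner proteins and is part of cytoplasmic and axonemal dynein. dynll1.S read 8.10 and 9.27 in uninjected caps, 7.26 and 8.51 in Mixer caps and 7.39 and 8.63 in Sox17beta caps. Its replicates were more than 1 log2 unit apart in every group, so the groups overlapped, while the differences within a replicate number were alike. They were -0.84 and -0.76 in Mixer caps, a mean fall of 0.80 ± 0.11 (SE of the blocked fit) or 1.74-fold (adjusted p = 0.0270 with the block, 1 without). In Sox17beta caps they were -0.71 and -0.64, a mean fall of 0.68 ± 0.11 or 1.60-fold (adjusted p = 0.0154 with the block, 1 without). Over the 6 omissions of 1 array the differences ranged from -0.84 to -0.76 and from -0.71 to -0.64. These ranges repeat the replicate differences and add no support.

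dynll1.L read 6.36 and 8.10 in uninjected, 5.78 and 7.20 in Mixer and 5.89 and 6.69 in Sox17beta caps. It was lower within each replicate number in both injected groups, at -0.74 and -0.94, and missed the threshold (adjusted p with the block 0.189 and 0.0537). It lay under the absent controls on Mixer replicate 1 and Sox17beta replicate 1. The sizes of its differences, and of those from the S copy, are therefore uncertain. Its response did not differ from that of the S copy beyond the error: L minus S was 0.06 in Mixer and -0.27 in Sox17beta caps (adjusted p over pairs 0.938 and 0.643 with the block). A probe set shared by both copies, which counts for neither, read 8.47 and 9.85, 7.70 and 9.12, and 7.97 and 8.77. It was lower in both injected groups too, at -0.75 (adjusted p = 0.107 with the block) and -0.79 (0.0452).

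A second probe set of dynll1.S disagreed with the first. It read 7.01 and 7.10 in uninjected caps, 6.63 and 7.37 in Mixer caps and 5.02 and 4.80 in Sox17beta caps. The uninjected and Mixer arrays overlapped, at a difference of -0.06 (adjusted p = 0.958 with the block), where the first set fell in both injected groups. The Sox17beta arrays were below the absent controls, so uninjected caps were at least 1.62-fold higher. The measured difference was -2.15 (adjusted p = 0.00440 with the block and 0.177 without).

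dynlrb2.S encodes a roadblock-type light chain of dynein. It read 7.62 and 6.87 in uninjected, 7.91 and 7.22 in Mixer and 7.31 and 6.36 in Sox17beta caps. Within each replicate number Mixer was highest and Sox17beta lowest. Neither differed detectably from uninjected caps (0.32, adjusted p = 0.332, and -0.41, adjusted p = 0.115, both with the block). Mixer exceeded Sox17beta by 0.60 and 0.86, a mean of 0.73 ± 0.12 or 1.66-fold (adjusted p = 0.0353 with the block, 1 without). Over the omissions of 1 array the difference ranged from 0.61 to 0.85 and passed in none of them (adjusted p from 0.0908 to 0.669). The other light chains, dynll2.S and the Tctex-type chains dynlt1.L and dynlt5.L, differed by 0.21 or less from uninjected caps. In Sox17beta caps all 6 light chains, among them both copies of dynll1, had a mean below the uninjected one. Their median was -0.31, and 1 of the 6 passed with the block. Of all 15491 probe sets 6265 were lower in Sox17beta caps, and 3.56% passed as lower with the block. Among the light chains dynlt5.L differed by only -0.015 and was below the absent controls on all arrays.

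The axonemal dyneins lay near or below the highest absent control of each array, and above the median absent control (3.725 to 4.06 over the arrays). dnah9.S, an outer arm heavy chain, lay between 5.50 and 5.97, and dnai1.L, an outer arm intermediate chain, between 4.97 and 5.60, both below the absent controls on all arrays. dnai4.S, an intermediate chain of inner arms, read 6.0 and 5.84 in uninjected, 5.91 and 6.20 in Mixer and 6.40 and 6.05 in Sox17beta caps and was above the absent controls on 2 arrays. None of the 3 passed, and the largest difference was 0.30, that of dnai4.S in Sox17beta caps (adjusted p = 0.386 with the block).

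The wider cilia program was described with a list of 75 genes of motile cilia and multiciliated cells, of which 30 were measured as 35 copies. Of these copies 21 were below the absent controls on all arrays and 10 above on all. None passed in Mixer caps. There the smallest p-values were those of rfx2.S (-0.84, adjusted p = 0.145 with the block) and cfap52.L (-0.38, 0.241). In Sox17beta caps 23 copies were higher and 12 lower than in uninjected caps, with a median of 0.04. With the block 3 of 35 fell and 0 rose, where 3.56% of all probe sets fell and 1.88% rose. ccno.L, a cyclin-family gene that drives centriole amplification in multiciliated cells, read 8.36 and 8.76 in uninjected, 7.98 and 8.11 in Mixer and 7.62 and 6.96 in Sox17beta caps. It fell by 1.27 in Sox17beta caps (adjusted p = 0.0280). rfx2.S, a transcription factor of ciliated cells, read 8.90 and 9.47, 8.42 and 8.27, and 8.38 and 8.01, and fell by 0.99 (0.0483). cfap52.L, a protein of the ciliary axoneme, read 6.86 and 7.22, 6.54 and 6.79, and 6.30 and 6.38. It fell by a measured 0.70 (0.0196), with Sox17beta replicate 1 under its absent control. For all 3 genes the 2 Sox17beta arrays were below both uninjected arrays. Without the block 0 of 35 passed. Between Mixer and Sox17beta caps none passed, and the smallest p-values were those of dnaaf5.L (0.49, adjusted p = 0.0917) and tekt2.S (-0.45, 0.127). Over the omissions of 1 array, ccno.L passed only without Sox17beta replicate 1, where 1 Sox17beta array is left (adjusted p = 0.0286), and rfx2.S and cfap52.L passed in none. Beside these falls, all 10 epidermal marker copies fell in Sox17beta caps with the block, with a median of -2.29. On Sox17beta replicates 1 and 2 only 6 and 5 of the 10 were above the absent controls, so the size of this median is uncertain. In Mixer caps all 10 had a lower mean too, with a median of -1.16, and 0 passed. On Mixer replicates 1 and 2, 7 and 10 were above the absent controls. The 1 measured mucus-secreting cell marker copy was a measured 3.65 higher in Mixer caps, with both uninjected arrays under the absent controls. It passed with the block, where 83 of 15491 probe sets passed as higher. Of 6 ionocyte marker copies 4 were higher and 2 lower there, with a median of 0.25, and 0 passed. In Sox17beta caps the mucus marker differed by 0.045 and the ionocyte median was 0.005. Of the multiciliated cell markers, ccno, spag6 and tekt2 were measured, and both spag6 and tekt2 were below the absent controls on every array. The part of cell composition in these values was not tested.

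Genes that bind, nucleate or fold microtubules formed a second list of 88 genes, 39 of them measured as 47 copies. Of these copies 11 were below the absent controls on all arrays and 30 above on all. In Mixer caps 39 copies were above and 8 below the uninjected mean, with a median of 0.14, and 0 passed. Of all 15491 probe sets 8613 were above and 6687 below it, with a median of 0.03. In this list the smallest p-values in Mixer caps were those of haus2.L, an augmin subunit (0.54, adjusted p = 0.0765 with the block), and mid1.L (0.51, 0.194). haus2.L was below the absent controls on every array, so the size of its difference is uncertain. In Sox17beta caps 34 were above and 12 below, with a median of 0.10. Of all probe sets 9074 were above and 6265 below there, with a median of 0.04. With the block 2 of 47 rose and 0 fell, where 1.88% of all probe sets rose and 3.56% fell. haus8.L, which encodes the augmin subunit that binds microtubules so that new ones branch off with gamma tubulin, read 6.78 and 5.80 in uninjected, 7.21 and 6.34 in Mixer and 7.66 and 7.18 in Sox17beta caps. Its order within each replicate number was uninjected, Mixer, Sox17beta. It rose by a measured 1.13 in Sox17beta caps (adjusted p = 0.00794), with uninjected replicate 2 under its absent control. stmn1.S, the tubulin-binding protein stathmin, read 9.84 and 8.84, 10.60 and 10.03, and 10.87 and 11.37, and rose by 1.78 or 3.43-fold (0.0232). Its L copy differed by -0.11, and no test of the 2 copies against each other is given here. The tubulin ring subunits tubgcp2.L, tubgcp3.S and tubgcp6.L differed by -0.17, 0.07 and -0.10 in Sox17beta caps, and none passed. Neither rise passed without the block, and each passed in 1 of 6 omissions, that of Sox17beta replicate 1, where 1 Sox17beta array is left (adjusted p = 0.0290 for haus8.L and 0.0245 for stmn1.S). Between Mixer and Sox17beta caps none passed, with haus8.L (-0.65, adjusted p = 0.0997) and map4.L (-0.38, 0.246) nearest.

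The mitotic spindle and kinetochore list held 39 genes, 29 of them measured as 40 copies, and 38 of these were above the absent controls on all arrays. In Mixer caps none passed, the median was 0.07, and ccnb1.S (0.90, adjusted p = 0.159 with the block) and incenp.S (0.34, 0.281) had the smallest p-values. In Sox17beta caps 15 copies were higher and 23 lower, with a median of -0.04. With the block 1 of 40 rose and 1 fell, where 1.88% of all probe sets rose and 3.56% fell: ccnb1.S, which encodes cyclin B1, rose by 1.51 (0.0157), and racgap1.L, a partner of the cytokinesis kinesin kif23, fell by 0.63 (0.0434). Neither passed without the block. Over the omissions of 1 array, ccnb1.S passed only without Sox17beta replicate 1, where 1 Sox17beta array is left (adjusted p = 0.0474), and racgap1.L passed in none. Between the injected groups racgap1.L (0.64, 0.0808) and incenp.S (0.53, 0.0928) came nearest.

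Replicate numbers moved many of these genes more than the injections did. The mean difference between replicate 2 and replicate 1 was larger than both injection differences in 29 of 46 members, or 63.0%, and in 54.5% of all probe sets. In 28 of 46 members it ran the same way in all 3 groups, in 11 of them higher and in 17 lower in replicate 2. That share, 60.9%, is close to the 62.2% of all probe sets. All 6 dynein light chains moved the same way in every group, 4 higher and 2 lower in replicate 2, and both gamma tubulins were lower. Of these light chains dynlt5.L lay below the absent controls on every array and moved by only -0.01 in uninjected caps. Of the mitotic kinesins 6 were lower and 2 higher in replicate 2 of all groups, and of the spindle list 25 of 40 were lower and 5 higher. What differed between the replicates is not given in the sources used here.

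**Figure D5:**
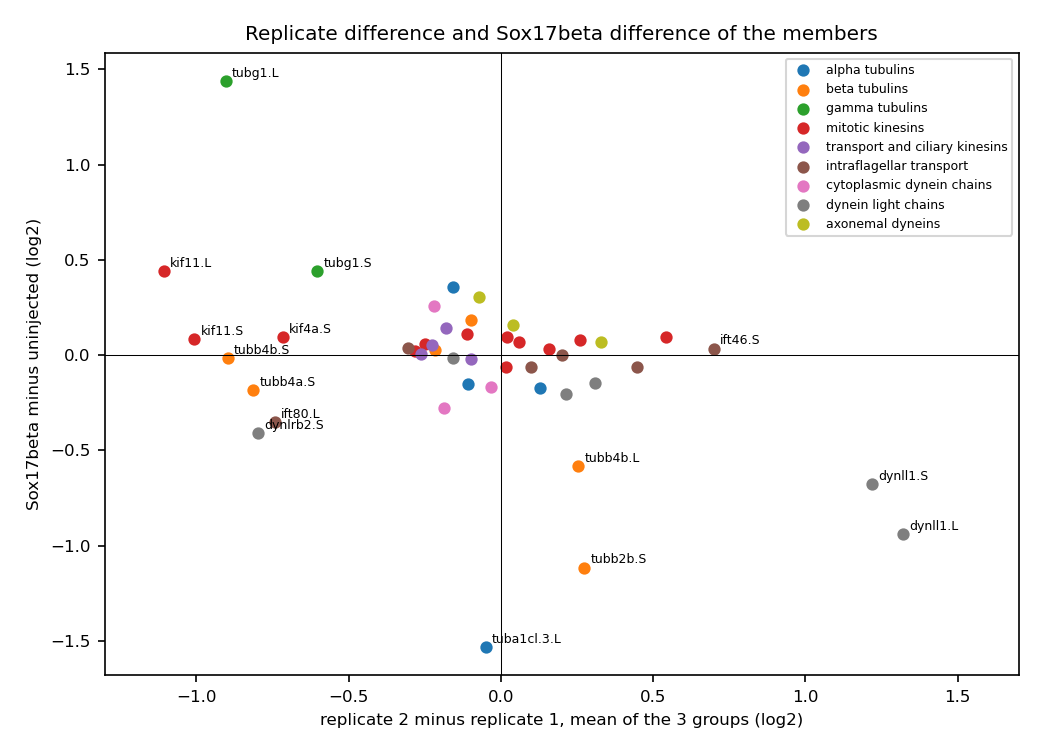
Each of the 46 genes and copies plotted by its replicate difference (replicate 2 minus replicate 1, mean of the 3 groups, log2, horizontal axis) and its difference between Sox17beta and uninjected caps (log2, vertical axis), coloured by role. dynll1.L, dynll1.S, kif11.L, kif11.S and tubg1.L lie far out on the replicate axis, whereas tuba1cl.3.L lies near 0 on it and far below 0 on the other.

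All 8 genes with both copies measured were compared for the response of L against S. The L and S differences were alike for kif15 (0.13 and 0.18 in Mixer, 0.04 and 0.08 in Sox17beta caps), kif2a (0.02 and -0.05, then 0.11 and 0.10) and dync1li1 (0.14 and 0.16, then -0.17 and -0.28). For kif11 the L copy stood 0.33 above the S copy in Mixer and 0.35 in Sox17beta caps (adjusted p over pairs 0.389 and 0.242 with the block). For tuba1c it stood 0.29 and 0.51 above, with the L copy below the absent controls (0.730 and 0.322). Without the block 0 of 8 pairs passed in any comparison. At an unadjusted p under 0.05 with the block the numbers were 1, 3 and 1 of 8, where 12%, 17.4% and 14.5% of all pairs reached it.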

How the data were processed

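RNA of 6 animal cap samples was measured on Affymetrix arrays. The deposited values are log2 expression values per probe set, made with RMA per the submitters' processing notes. The sources used here give no version, array software or genome build, so no coordinates are printed. RMA subtracts background, equalises the arrays and summarises probes, and it can understate changes near background. Values had 2 decimals and were used as deposited. Columns of other series numbered 0.

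The tests covered 15491 of 15611 probe sets, without the 120 controls. Symbols came from the platform annotation (9304 probe sets with 1 symbol, 195 with several, 5992 with none). The members have 57 probe sets, and 1 further set shared by both copies of dynll1 was left out. All 46 matched the RefSeq annotation Xenopus_laevis_v10.1 with 0 symbols changed. It holds 126 protein-coding symbols that match the rule.

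Group means were fitted with limma 3.58.1 (lmFit, eBayes) in R 4.3.3 on all 6 arrays, two-sided, with Benjamini-Hochberg adjustment per comparison and a threshold of 0.05. L minus S values of 1017 pairs were fitted likewise. The replicate number as a block was an alternative. The labels give the numbers, and deviations of same-numbered arrays correlated at 0.867 (uninjected and Mixer), 0.732 (uninjected and Sox17beta) and 0.776 (Mixer and Sox17beta), so the numbers were taken to pair the arrays. Residual degrees of freedom were 3 without and 2 with the block. The fits were also run on simulated data made with a replicate effect alike in all groups. That run cannot show whether the block suits these arrays. Other alternatives were quantile normalization, 2 filters on low values, an intensity trend, other choices of probe set, and leaving out each array. Plots used matplotlib 3.10.9 (Python 3.11.15).

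Earlier results of these data were known when the members, the lists of genes and the naming rule were chosen. The rule names each called member, the brightest member and the largest difference of each role class, up to 4 called genes of each other list or the 2 with the smallest p, and every L and S pair. Genes beyond it, named to complete a class or complex, were picked after their values were seen. With 2 arrays per group, their number limits the precision.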

Additional observations from a re-analysis of the deposited data

Results flagged for a closer look

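Several probe sets that match the rule were not used, because a brighter set stood for the gene or because 1 set reads both copies. Those that passed with the replicate block in data outside the values used are given here, and none of them passed without the block. The second probe set of dynll1.S differed by a measured -2.15 in Sox17beta caps, where both arrays were under the absent controls (adjusted p = 0.00440 with the block, 0.177 without), and was a measured 2.09 higher in Mixer than in Sox17beta caps (0.00834 and 0.248). The second _x_at set of tuba1cl.3.L gave -1.56 in Sox17beta caps (0.0156 and 0.255). The gene-specific set of tuba5.S gave -1.11 in Mixer caps (0.0450 and 1) and -1.18 in Sox17beta caps (0.0150 and 0.874), and its _x_at set gave -0.89 in Sox17beta caps (0.0275 and 0.835). The set shared by dynll1.L and dynll1.S gave -0.79 in Sox17beta caps (0.0452 and 1). The 4 calls of single copies in Sox17beta caps and that of the shared set passed without Sox17beta replicate 1, where 1 Sox17beta array is left, and in no other omission. The calls of dynll1.S between Mixer and Sox17beta caps and of tuba5.S in Mixer caps passed in none of the 6 omissions, with adjusted p from 0.0674 to 0.424 and from 0.107 to 0.755.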

How the results depend on the processing

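The replicate block raised the number of called members from 0 to 2 in Mixer caps, to 5 in Sox17beta caps and to 2 between the injected groups, and the number of called L and S pairs in Sox17beta caps from 0 to 1. With the block, averaging all probe sets of a gene left 0 calls in Mixer caps, and between the injected groups the filter on absent controls and the intensity trend left 1 each (dynlrb2.S). Averaging gave 3 there. In Sox17beta caps 4 to 6 members passed under these settings. Over the single-array omissions the blocked counts ran from 0 to 0 in Mixer caps, from 0 to 3 in Sox17beta caps and from 0 to 0 between them. The 3 calls without Sox17beta replicate 1 were tuba1cl.3.L, tubb2b.S and dynll1.L. The median member difference without the block ranged from 0.015 to 0.1025 in Mixer caps and from -0.055 to 0.035 in Sox17beta caps. For the 24 members named by the rule, 77 of 921 values under alternatives changed sign. Of these, 0 were among the 9 differences called with the block. The largest difference among those that changed sign was 0.74 log2 units in size. The 9 newly called values all came from the block. Every other alternative in this count was fitted without the block, so new calls in blocked fits were not counted. Among such calls was that of tuba5.S with gene-specific sets. The 25th percentile filter left 40 members and the absent control filter 35. Precision is limited by 2 arrays a group and by values close to background.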
